A study of Rattus norvegicus with 6 samples.

Results

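The genes described here take up, activate and oxidise fatty acids, or are known to control these steps in the heart. They are 36 genes, found by their symbol among the 43035 features of a count table of rat neonatal cardiomyocytes. All 36 symbols were present. Counts were high enough for a test in 26 of them, whereas 10 (Cd36, Fabp4, Angptl4, Acsl1, Acsl3, Acsl4, Cpt1a, Cpt1b, Hadhb and Ucp3) had too few counts and are described at the end. RNA-seq was performed on primary cardiomyocytes from the hearts of Sprague-Dawley rats at postnatal day 1, grown in medium with fetal bovine serum. Cells of both groups received an siRNA, either a scramble control (si-NC) or one directed at DYRK1A (si-DYRK1A), and were cultured for a further 48 h. DYRK1A is a protein kinase, and siRNAs are short duplexes that direct the degradation of an mRNA of matching sequence. According to the methods, rats were 1 to 2 days old and cardiomyocytes were enriched by differential attachment, so other heart cells can remain. The labels give 3 biological replicates per group without naming separate litters or cultures, so that p-values measure the spread between these libraries.

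Fatty acids reach the cardiomyocyte from circulating lipoproteins or albumin, are bound and activated in the cytosol, and enter the mitochondrion through the carnitine shuttle. There the beta-oxidation spiral removes acetyl-CoA units, auxiliary isomerases move double bonds of unsaturated chains into a position the spiral accepts, and the electron transfer flavoprotein passes electrons to the respiratory chain. The fetal heart relies largely on glucose and lactate, and after birth it turns to fatty acids, a change in which the PPAR receptors and the coactivator PGC-1alpha (Ppargc1a) take part. The question put to the data is whether these genes differed between the si-DYRK1A and si-NC libraries.

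The 6 libraries held 10325074 to 11921772 counts each. Dyrk1a itself was covered by 3, 0 and 1 counts in si-NC and by 2, 1 and 0 in si-DYRK1A, and an unannotated transcript that spans it gave 77.7 ± 3.22 and 82.4 ± 2.7 CPM (counts scaled to library sizes normalised by TMM, mean ± SD, n = 3 per group). The log2 fold change of that transcript was 0.08, with a 95% interval of -0.035 to 0.2 and an adjusted p of 0.374 in edgeR. The spanning transcript thus showed no fall in the libraries labelled si-DYRK1A, and the gene itself had too few counts for a comparison. How reads were assigned between the gene and this transcript is not given. These counts therefore did not show a knockdown and cannot settle whether there was one. In all that follows si-DYRK1A means the libraries with that label, and each direction rests on it. Of 14 cardiomyocyte markers, 5 (Tnni3, Myh6, Myh7, Myl2 and Mybpc3) were listed at 0 in every library. The summed CPM of that list was 15710 to 16080 in si-NC and 16830 to 17260 in si-DYRK1A, beside 21530 to 26240 and 20370 to 21110 for 9 fibroblast markers. The collagens Col1a1 and Col3a1 carried nearly all of the fibroblast sum, at 14340 ± 1920 and 9002 ± 486 CPM in si-NC. Lum was at 259.7 ± 13.4 CPM and Tcf21 at 86.8 ± 6.98 CPM in si-NC, with Dcn at 6.82 and Postn at 6.54 CPM. Pdgfra was at 0 and Thy1 and Fap near 0. Cardiomyocyte markers were also listed at 0, so these low values cannot tell whether fibroblasts were few.

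Across the tested fatty acid genes, 5 were lower and 2 were higher in si-DYRK1A than in si-NC. The lower genes were Plin2, which coats lipid droplets, Lpl, the lipase that releases fatty acids from circulating triglyceride, Hadh, a dehydrogenase of the spiral, and the isomerases Eci1 and Eci2. The higher genes were Ppargc1a and Fabp3, the heart fatty acid binding protein. All 7 changes were moderate: at one end Plin2 fell by 26.4%, and at the other Ppargc1a rose by 36.9%. The 5 lower genes make 19.2% of the 26 tested, where 7.19% of all 15513 tested features were lower, and the 2 higher genes make 7.69%, where 8.03% of all features were higher. The fatty acid genes were chosen with earlier results of these data known, so these shares are descriptive only. All tested features include unannotated transcripts. In a fit of annotated genes only, 891 of 9707 tested genes were lower and 874 higher, with again 5 lower and 2 higher fatty acid genes. Calls used the quasi-likelihood test of edgeR with a Benjamini-Hochberg adjusted p below 0.05 over all features. The median log2 fold change was -0.03 over the 26 genes and 0.002 over all features, with 11 positive and 15 negative values. In CPM the groups did not overlap for 14 of the 26 (53.8%), beside 31.5% of all tested features. None of these shares was matched for level. The 26 genes had a median of 69.2 FPKM in si-NC, whereas all tested features reach down to the filter on low counts, where small changes are harder to call. In these cultures fewer cells of a type and less RNA per cell cannot be told apart.

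**Figure D1:**
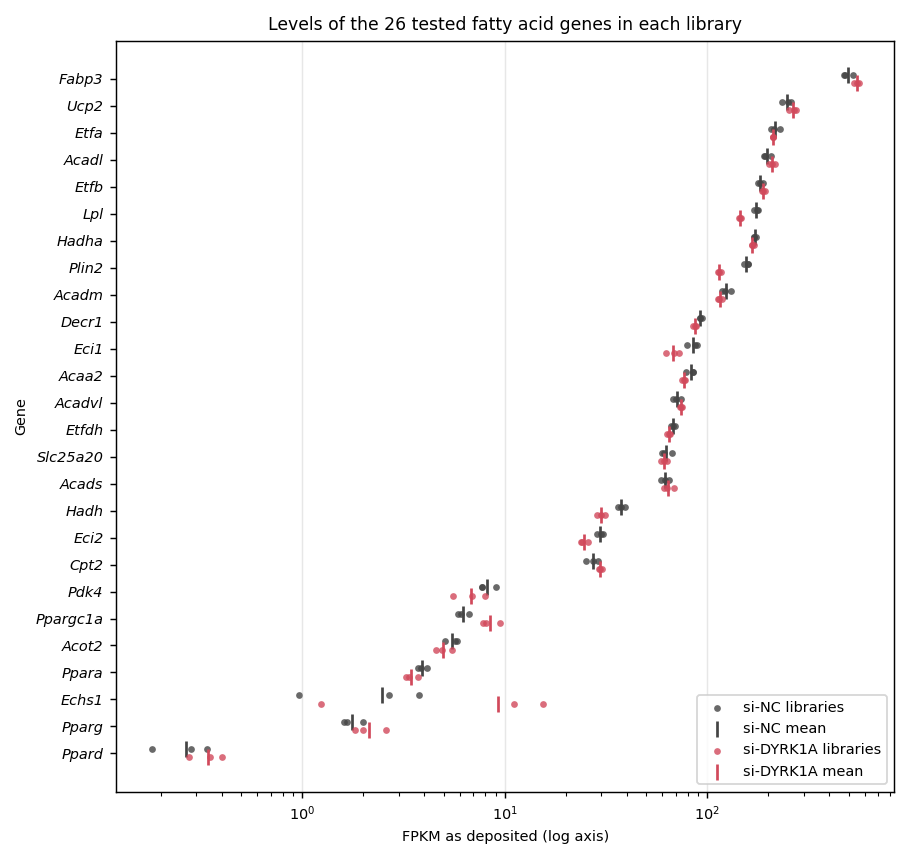
Deposited FPKM (log axis) of the 26 tested fatty acid genes in each si-NC and si-DYRK1A library, ordered by the si-NC mean. Points are libraries and vertical ticks are group means. Levels run from 495 FPKM for Fabp3 to 0.266 FPKM for Ppard in si-NC, and the widest scatter within a group is that of Echs1.

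Levels per gene length (FPKM) put Fabp3 first in the si-NC libraries, at 495 ± 28.6 FPKM (SD, n = 3). It was followed by Ucp2, a carrier of the inner mitochondrial membrane, at 248 ± 13.2 FPKM, and by Etfa, a subunit of the electron transfer flavoprotein, at 216 ± 11.3 FPKM. Acadl, Etfb, Lpl, Hadha, Plin2 and Acadm stood between 124 and 197 FPKM. The tested genes of the spiral and its auxiliary enzymes ran from 29.7 FPKM for Eci2 to 197 FPKM for Acadl, apart from Echs1 at 2.48 FPKM, beside a median of 69.2 FPKM over the 26 genes. Regulators were far lower, with 6.19 FPKM for Ppargc1a, 3.9 for Ppara, 1.75 for Pparg and 0.266 for Ppard. Of the 25 neighbouring pairs in this order, 9 overlapped between their si-NC libraries and so had no clear order, among them Etfa with Acadl and Lpl with Hadha.

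**Figure D2:**
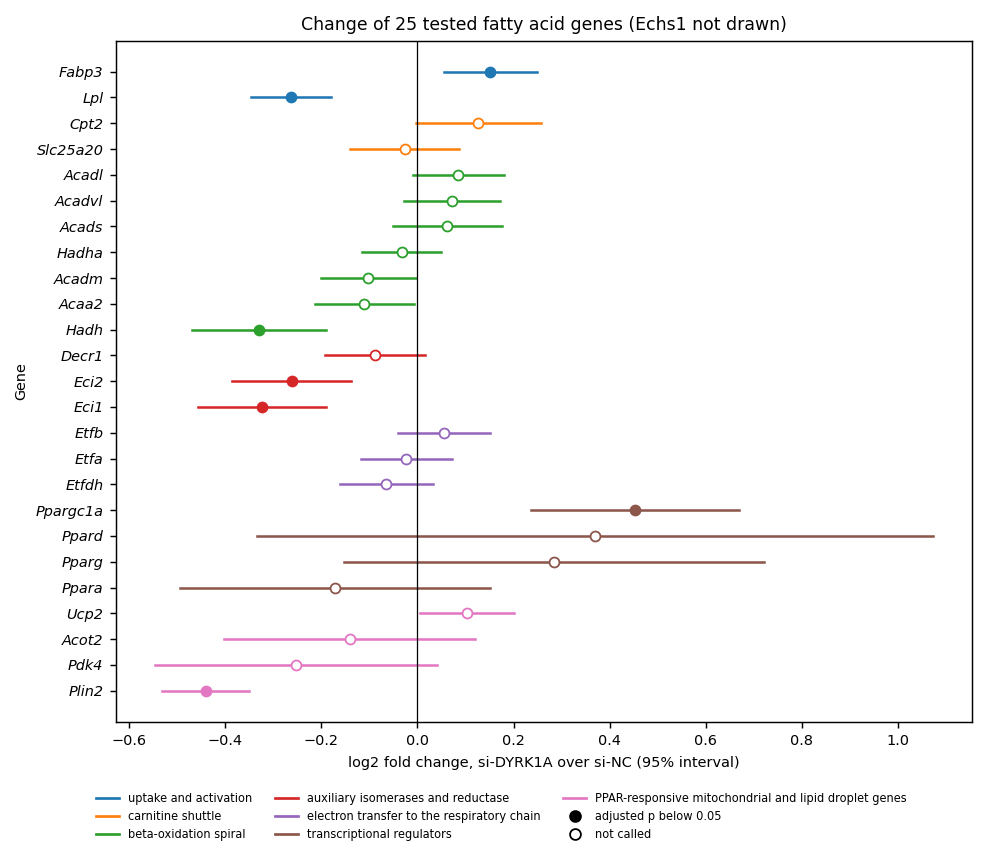
Log2 fold change of si-DYRK1A over si-NC for 25 tested genes, with 95% intervals from edgeR, coloured by role. Filled circles passed the adjusted p of 0.05. The filled circles left of zero are Lpl, Hadh, Eci1, Eci2 and Plin2, and those right of zero are Fabp3 and Ppargc1a. Echs1 (1.91, interval -1.01 to 4.82) is left out for its width.

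Of the 8 uptake and activation genes, only Lpl and Fabp3 were tested, and they moved in opposite directions. Lpl (ENSRNOG00000012181, minus strand of chromosome 16, 22537056 to 22561496 on Rnor_6.0) gave 632, 653 and 650 CPM in the si-NC libraries and 532, 541 and 539 CPM in the si-DYRK1A libraries. Each si-DYRK1A library lay below each si-NC library, with little scatter in either group. The level of Lpl fell by 16.7% (log2 fold change -0.26, SE 0.0399, adjusted p = 7.53e-05 by edgeR). Fabp3 (ENSRNOG00000012879, plus strand of chromosome 5, 148528725 to 148535565) gave 371, 364 and 405 CPM in si-NC and 433, 411 and 423 CPM in si-DYRK1A. The groups did not overlap, but the highest si-NC library came within a few CPM of the lowest si-DYRK1A library. Fabp3 rose by 11.1% (log2 fold change 0.15, SE 0.0463, adjusted p = 0.0292 by edgeR). This call was lost in 8 of 17 other settings, with an adjusted p of up to 0.139 without si-NC replicate 1, and is the least secure of the 7.

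**Figure D3:**
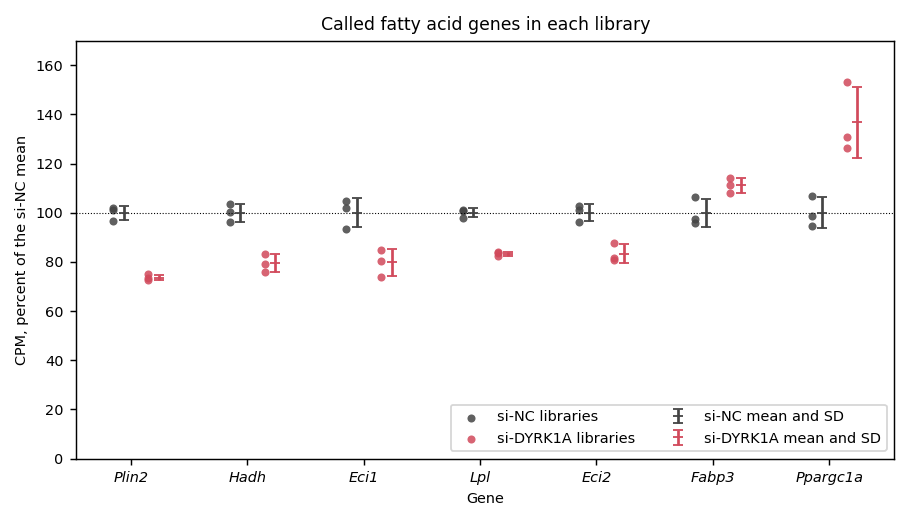
CPM of the 7 called genes in each library as percent of the si-NC mean, with group means and SD (n = 3). No si-DYRK1A point of a gene overlaps its si-NC points. The narrowest gap between the groups is that of Fabp3, and the widest scatter is that of Ppargc1a in si-DYRK1A.

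The carnitine shuttle carries long acyl chains across the inner membrane. Its tested genes, Cpt2, which rebuilds acyl-CoA inside the mitochondrion, and Slc25a20, the acylcarnitine carrier, were not called. Cpt2 gave 65.6 ± 4.28 CPM in si-NC and 71.7 ± 1.19 CPM in si-DYRK1A (log2 fold change 0.13, 95% interval -0.004 to 0.26, adjusted p = 0.199 by edgeR). Slc25a20 gave 112 ± 6.87 and 110 ± 3.81 CPM, with an interval of -0.14 to 0.09 on the log2 scale.

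In the beta-oxidation spiral, 1 of 8 tested genes was called. Hadh (ENSRNOG00000010697, minus strand of chromosome 2, 236353445 to 236395067), which encodes the dehydrogenase for short and medium 3-hydroxyacyl chains, gave 63.2, 65.1 and 60.6 CPM in si-NC and 52.5, 49.9 and 47.9 CPM in si-DYRK1A. All 3 si-DYRK1A libraries were below the si-NC range. Hadh fell by 20.5% (log2 fold change -0.33, SE 0.0669, adjusted p = 0.0015 by edgeR). The acyl-CoA dehydrogenases, which open each turn of the spiral, did not pass the test: Acadvl at 0.07, Acadl at 0.09, Acadm at -0.1 and Acads at 0.06 on the log2 scale, with adjusted p from 0.167 to 0.509. Their 95% intervals all lay between -0.2 and 0.18, and that of Acadm was negative throughout (-0.2 to -0.003, unadjusted p = 0.0438 by edgeR). Hadha, the alpha subunit of the trifunctional protein, gave 509 ± 3.49 CPM in si-NC and 498 ± 5.56 in si-DYRK1A (log2 fold change -0.03, adjusted p = 0.653 by edgeR). Acaa2, the thiolase that ends the turn for medium chains, gave 136 ± 5.41 and 126 ± 2.78 CPM (log2 fold change -0.11, unadjusted p = 0.0364 and adjusted p = 0.148 by edgeR).

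Echs1, the enoyl-CoA hydratase of the spiral, could not be judged. Its counts were 59, 17 and 48 in si-NC but 21, 244 and 192 in si-DYRK1A. si-DYRK1A replicate 1 lay inside the si-NC range and the other two were far above it. The log2 fold change was 1.91 with an SE of 1.07, and the adjusted p was 0.356 in edgeR. Its highest library was 12.4 times its lowest within a group, the 99.7th percentile among 10388 features with a mean of at least 50 counts, of which 51 reached 5 times. The other tested members with such counts ranged from 1.02 to 1.43 times. An unannotated transcript that covers the listed span of Echs1 also covers Zfp710 and Fuom. It held 557 to 702 counts per library, with a log2 fold change of 0.005 (SE 0.069, adjusted p = 0.977 by edgeR). The part of this overlap in the scatter was not tested.

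The auxiliary enzymes act on unsaturated fatty acids. Eci1 and Eci2 shift a double bond so that the spiral can go on, and Decr1 reduces a conjugated pair. Eci1 (ENSRNOG00000008843, plus strand of chromosome 10, 13797562 to 13810913) gave 91.6, 89.2 and 81.7 CPM in si-NC and 64.7, 70.5 and 74.4 CPM in si-DYRK1A. The groups did not overlap. Eci1 fell by 20.1% (log2 fold change -0.32, SE 0.0641, adjusted p = 0.00125 by edgeR). Eci2 (ENSRNOG00000029549, plus strand of chromosome 17, 30556884 to 30639040) gave 79.2, 84.7 and 83.2 CPM in si-NC and 66.6, 67.2 and 72.3 CPM in si-DYRK1A, again with no overlap. Eci2 fell by 16.6% (log2 fold change -0.26, SE 0.0594, adjusted p = 0.00386 by edgeR). An unannotated transcript covering Eci2 held 17 to 33 further counts per library, and with these added the log2 fold change was -0.27 (adjusted p = 0.00247). Decr1 gave 108 ± 1.1 CPM in si-NC and 102 ± 2.01 in si-DYRK1A, and the fit gave -0.09 on the log2 scale with an adjusted p of 0.264.

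None of the 3 electron transfer genes was called by edgeR at an adjusted p below 0.05, and none had an unadjusted p below 0.05 (0.62, 0.242 and 0.182). DESeq2 and limma did not call them either. Etfa and Etfb encode the flavoprotein that collects electrons from the dehydrogenases, and Etfdh hands them to ubiquinone. Their 95% intervals were -0.12 to 0.07 for Etfa, -0.04 to 0.15 for Etfb and -0.16 to 0.03 for Etfdh on the log2 scale. These intervals leave out falls as large as the 0.26 of Eci2 and Lpl.

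Of the 4 regulators, Ppargc1a was called. This coactivator of nuclear receptors (ENSRNOG00000004473, plus strand of chromosome 14, 63095720 to 63187009) gave 16.8, 18.2 and 16.1 CPM in si-NC and 22.3, 21.5 and 26.1 CPM in si-DYRK1A. All si-DYRK1A libraries were above the si-NC range, and si-DYRK1A replicate 3 was the highest. Ppargc1a rose by 36.9% (log2 fold change 0.45, SE 0.104, adjusted p = 0.00432 by edgeR). Without si-DYRK1A replicate 3 the log2 fold change was 0.36 and the adjusted p 0.0507. The 3 PPAR receptors rested on few counts and were not called. Ppara, the isoform most tied to cardiac fatty acid oxidation, had 74 to 104 counts per library and a log2 fold change of -0.17 (SE 0.155). Pparg had 39 to 69 counts and 0.28 (SE 0.21), and Ppard had 12 to 26 counts and 0.37 (SE 0.338). At this depth a change of Ppard or Pparg of the size seen for Ppargc1a lies within the 95% interval.

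Of the genes that answer to PPAR receptors, Plin2 had the smallest p of all 26. Plin2 (ENSRNOG00000007060, minus strand of chromosome 5, 104984414 to 105010857) gave 298, 283 and 296 CPM in si-NC and 219, 212 and 215 CPM in si-DYRK1A. The gap between the groups was much wider than the scatter in either. Plin2 fell by 26.4% (log2 fold change -0.44, SE 0.0437, adjusted p = 3.61e-07 by edgeR). The others were not called. Pdk4, the kinase that restrains pyruvate oxidation, gave 12.3, 14.3 and 12.2 CPM in si-NC and 12.7, 8.85 and 11 in si-DYRK1A (log2 fold change -0.25, adjusted p = 0.262 by edgeR). Ucp2 gave 403 ± 21 and 432 ± 17 CPM (log2 fold change 0.1, unadjusted p = 0.0385 and adjusted p = 0.154 by edgeR). Acot2, a mitochondrial thioesterase, gave 13.2 ± 0.959 and 11.9 ± 1.1 CPM (log2 fold change -0.14, adjusted p = 0.514 by edgeR). It has the close paralogs Acot1, Acot3 and Acot4, which an unannotated transcript with 17 to 32 counts per library covers together with Acot2. How reads shared by these paralogs were assigned was not tested.

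**Figure D4:**
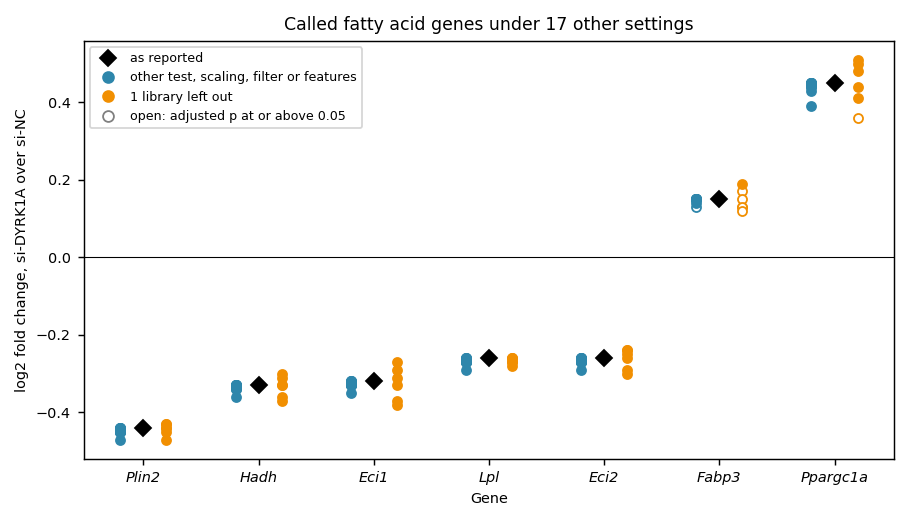
Log2 fold change of the 7 called genes as reported (diamonds) and under 17 other settings (circles), of which 6 leave out 1 library. Open circles have an adjusted p of 0.05 or more. All points of a gene lie on the same side of zero, and open circles appear for Fabp3 and, without si-DYRK1A replicate 3, for Ppargc1a.

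Promoter sequences were read for 3 of the called genes, those whose window held a searched motif before the start. RefSeq windows on GRCr8, a newer build than that of the counts, reach from 250 bases before to 50 after a start, and 29 of the 36 genes had one. Lpl was among the 7 genes without a window and was not searched, and of the other called genes Fabp3 and Hadh had no match. The motifs were the nuclear receptor core AGGTCA, that core repeated with 1 base between (the form PPAR receptors bind), TCAAGGTCA of the estrogen-related receptors, which contains the core, the cyclic AMP element TGACGTCA and the E-box CACGTG, all on both strands. The 200 bases before the start are printed 5′ to 3′ on the gene's strand, with matches in capitals. Plin2 lies on the minus strand at chr5:106229019-106229218 and is shown for 1 of its 2 listed starts, Eci1 on the plus strand at chr10:13961050-13961249, and Ppargc1a on the plus strand at chr14:63634108-63634307.
Plin2: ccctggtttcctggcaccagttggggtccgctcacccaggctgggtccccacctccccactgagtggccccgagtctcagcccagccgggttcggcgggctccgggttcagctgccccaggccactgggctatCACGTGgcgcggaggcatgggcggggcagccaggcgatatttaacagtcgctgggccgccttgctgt
Eci1: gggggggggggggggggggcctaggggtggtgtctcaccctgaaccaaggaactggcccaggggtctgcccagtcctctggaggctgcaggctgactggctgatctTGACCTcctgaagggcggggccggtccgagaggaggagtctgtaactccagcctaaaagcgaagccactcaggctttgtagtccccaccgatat
Ppargc1a: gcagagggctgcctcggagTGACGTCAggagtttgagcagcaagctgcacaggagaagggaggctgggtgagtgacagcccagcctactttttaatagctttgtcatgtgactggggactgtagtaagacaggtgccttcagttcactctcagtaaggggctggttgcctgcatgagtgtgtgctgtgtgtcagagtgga

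The capitals in Plin2 mark an E-box whose first base lies at -67 from the start, the only E-box among the 29 genes, where 6.42% of all 33469 windows held one. In Ppargc1a they mark a cyclic AMP element at -181, a motif found in 1.83% of windows and also at -103 of Acadm. In Eci1 they mark the receptor core on the opposite strand at -94. Receptor cores were found in 6 of the 29 genes (Acadvl, Echs1, Eci1, Eci2, Hadhb and Ucp3) and in 16.2% of all windows. For every motif a gene counts if any of its windows matched, whereas the percentages are per window, so these are unlike measures. In Eci2 the core begins 18 bases after the start. The window of Echs1 starts at base 204333457 on GRCr8, whereas its counted span begins at base 141821916 of chromosome 1 on Rnor_6.0. Whether both are the same locus was not tested. The repeated core and TCAAGGTCA were in none of the 29, and in 0.0538% and 0.433% of all windows. These are letter matches and say nothing of binding.

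A wider list of 108 genes of the same pathways was read from the same fit, and 4 symbols (Acaa1a, Scp2, Eci3 and Sirt1) were not found. Of 63 tested, 3 were higher (4.76%, beside 8.03% of all tested features) and 8 lower (12.7%, beside 7.19%). The list was chosen with earlier results of these data known, so these shares are descriptive only. The groups of this list are small, so that 1 or 2 calls move their shares widely. By group, 2 of 12 uptake, activation and carnitine genes and 1 of 9 receptors, coactivators and kinases were higher. Lower were 1 of 11 genes of mitochondrial branched and odd chain oxidation, 2 of 11 peroxisomal genes, 4 of 11 genes of lipid droplets, thioesterases and lipases, and 1 of 9 genes of ketone bodies and the pyruvate switch. The higher genes were Ppargc1b, the close relative of Ppargc1a, Fabp5, a fatty acid binding protein of many cell types, and Slc27a3, a member of the fatty acid transport proteins. Ppargc1b gave 38.3, 44.4 and 36.9 CPM in si-NC and 56.5, 56.2 and 55.6 in si-DYRK1A, a rise of 40.8% without overlap (adjusted p = 9.7e-05 by edgeR). Both PGC-1 coactivators were thus higher in si-DYRK1A. Fabp5 rose by 24.8% (adjusted p = 0.000113) and Slc27a3 by 19.2% (adjusted p = 0.00164), both by edgeR.

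Among 11 tested genes of lipid droplets, thioesterases and lipases, 4 were lower in si-DYRK1A (36.4%, beside 7.19% of all tested features). The list had no common direction, with 5 positive and 6 negative log2 fold changes and a median of -0.03. Among the positive values, none of them called, were Dgat1 (0.08), Fitm2 (0.06) and G0s2 (0.12). Dgat2, which makes the last bond of triglyceride, gave 27.9, 30.7 and 32.8 CPM in si-NC and 19.7, 21.8 and 21.2 in si-DYRK1A and fell by 31.5% (adjusted p = 0.000259 by edgeR). Fitm1, a protein of lipid droplet formation, gave 16.2, 13.4 and 15.3 CPM against 9.94, 8.66 and 10.3, and fell by 35.6% (adjusted p = 0.00159 by edgeR). The groups were apart in both genes, as in Plin2. Plin4, a second droplet coat protein with under 10 CPM, fell by 41.8% (adjusted p = 0.00613 by edgeR), a call lost in 2 of 17 settings, both of them limma on log2 FPKM. Acot9, a mitochondrial thioesterase, fell by 12.4% and lost its call in 5 of 17 settings. Pnpla2, the triglyceride lipase, scattered like Echs1, with a ratio of 7.6 within a group.

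In the peroxisomal list, 10 of 11 tested genes had a negative log2 fold change, as did 7696 of all 15513 tested features, and 2 were called lower (18.2%, beside 7.19% of all features). The other 8 negative values were not called. Hsd17b4, the bifunctional enzyme of peroxisomal oxidation, gave 210, 201 and 212 CPM in si-NC and 179, 183 and 169 in si-DYRK1A, without overlap, and fell by 14.9% (adjusted p = 0.00144 by edgeR). Abcd2, a peroxisomal fatty acid transporter, fell by 36.5% at under 10 CPM and lost its call in 7 of 17 settings. Of the remaining lists, Pdk2, a kinase that inhibits pyruvate dehydrogenase, fell by 21% (adjusted p = 0.00184 by edgeR). Mut, the methylmalonyl-CoA mutase of odd-chain oxidation, fell by 13.7% and lost its call in 6 of 17 settings.

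Some markers of other cell types differed between the groups, whereas the summed levels of the macrophage, smooth muscle and adipocyte lists overlapped. The counts below stand beside 8.03% of all tested features higher and 7.19% lower. Of 8 tested endothelial markers, 3 were lower in si-DYRK1A (Cdh5, Tie1 and Tek), and the summed level of the list was 180 to 199 CPM in si-NC and 149 to 155 in si-DYRK1A, with Flt1 at 0. In this list 6 log2 fold changes were negative and 2 positive. Erg was higher without overlap but not called (adjusted p = 0.299 by edgeR), and Kdr was nearly level (log2 fold change -0.01). Of 8 tested macrophage markers 2 were higher (Cd163 and Lyz2), with sums of 281 to 297 and 283 to 329 CPM and Cd68 at 0. The list had no common direction, with 4 positive and 4 negative log2 fold changes. Adgre1 and Ptprc were lower without overlap but not called (adjusted p = 0.168 and 0.124 by edgeR). Of 6 tested fibroblast markers 2 were higher (Lum and Postn), while Col1a1, the most abundant, gave 14340 ± 1920 CPM in si-NC and 11110 ± 196 in si-DYRK1A without overlap and was not called (adjusted p = 0.0869 by edgeR). Of 7 tested cardiomyocyte markers 3 were higher (Actc1, Actn2 and Pln, the last with overlap of the groups), with 5 positive and 2 negative log2 fold changes. Myl3 gave 2362 ± 141 CPM in si-NC and 2188 ± 18.4 in si-DYRK1A, lower without overlap but not called (adjusted p = 0.0878 by edgeR). The adipocyte list summed to only 15.6 to 18.1 CPM in si-NC and 15.4 to 15.8 in si-DYRK1A, with Cfd lower and Adrb3 higher, and edgeR called 0 of 3 tested smooth muscle markers, of which Tagln had an unadjusted p of 0.0495 and an adjusted p of 0.181 (sums of 688.6 to 722 and 710 to 729 CPM, with Myh11, Acta2 and Smtn at 0). Lpl, Fabp5 and Plin2 are not restricted to cardiomyocytes, and the part of these shifts in the results was not tested.

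**Figure D5:**
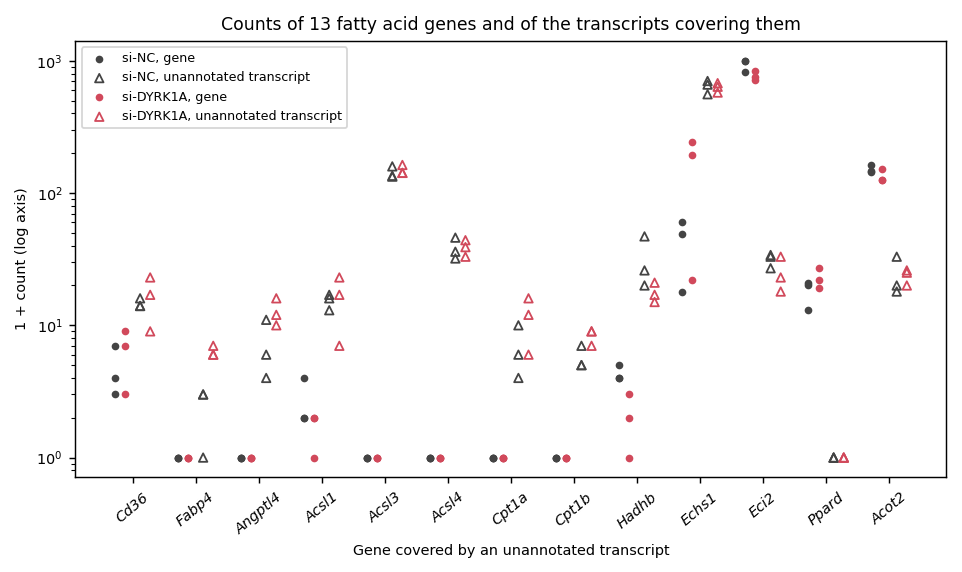
Counts plus 1 (log axis) per library of 13 fatty acid genes (circles) and of the unannotated transcripts that cover at least 50% of each gene on its strand (triangles). In 9 of the 13 the gene stays below 10 counts in every library. The transcripts covering Acsl3 and Echs1 hold over 100 counts, and most others fewer than 50.

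The 10 genes that could not be tested include several defining enzymes of the pathway, and their low counts do not show that they were not expressed. Fabp4, Angptl4, Acsl3, Acsl4, Cpt1a and Cpt1b had 0 counts in every library, which allows up to 0.251 to 0.288 CPM per library (3 counts, counting error only). Cd36, the fatty acid translocase, had 2 to 8 counts, Acsl1, the main cardiac acyl-CoA synthetase, 0 to 3, Hadhb, the beta subunit of the trifunctional protein, 0 to 4, and Ucp3 0 to 4. The alpha subunit Hadha, which works in one complex with Hadhb, had 5244 to 6070 counts. In 9 of the 10, all but Ucp3, an unannotated transcript of the same strand covered at least 50% of the gene. Over the 36 genes, 9 of 13 so covered (69.2%) stayed below 10 counts in every library, against 1 of 23 not covered (4.35%). Over all protein-coding genes these shares were 77.2% of 6885 and 45.4% of 15365. The way reads were assigned between a gene and an overlapping transcript is not given in the sources used here, and its part in the low counts was not tested.

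The transcripts covering these untested genes held few counts themselves. That over Acsl3, a synthetase found on lipid droplets, gave 132, 158 and 134 counts in si-NC and 141, 141 and 162 in si-DYRK1A, and also covers another gene. That over Hadhb gave 25, 19 and 46 against 16, 14 and 20 counts (log2 fold change -0.81, SE 0.337, adjusted p = 0.116 by edgeR), with overlap of the groups. Summed with the counts of Hadhb itself, the log2 fold change was -0.88 and the adjusted p 0.0642. Over Acsl4, a synthetase that prefers arachidonate, the transcript held 31 to 45 counts (log2 fold change 0.06, SE 0.239), over Acsl1 6 to 22 (0.05, SE 0.415) and over Cd36, together with its neighbours LOC103690020 and RGD1565355, 8 to 22 (0.2, SE 0.401). None of these was called.

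For the carnitine palmitoyltransferases, the entry enzymes of the shuttle, the covering transcripts were too sparse for a test. They gave 3, 9 and 5 counts in si-NC and 5, 11 and 15 in si-DYRK1A over the liver form Cpt1a. Over the muscle form Cpt1b, a span shared with Chkb, they gave 4, 4 and 6 against 8, 6 and 8 counts. Angptl4, a secreted inhibitor of Lpl, had 3, 5 and 10 against 15, 11 and 9 counts in its covering transcript, and Fabp4, the binding protein of adipocytes and endothelium, 2, 2 and 0 against 6, 5 and 5. In CPM the groups did not overlap over Cpt1b and Fabp4 and overlapped over Cpt1a and Angptl4, where 31.5% of all tested features had no overlap. Over Cpt1b both groups held a library with 6 counts, so that a few reads decide whether such groups overlap. These 4 transcripts were below the filter on low counts and were not tested.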

How the data were processed

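RNA-seq libraries of rat neonatal cardiomyocytes (3 si-NC, 3 si-DYRK1A) were grouped and numbered by the sample labels. The study's methods state that the authors aligned reads to Rnor_6.0 with HISAT2, whereas the submitters' processing notes name Bowtie 0.12.2 and mm8. The labels name a TruSeq kit and the methods a NEBNext kit. Not given in the sources used here are the counting tool, the annotation release and whether strand was used. Raw counts per feature, FPKM values and a gene length in bases were deposited by the authors. Each deposited FPKM value equals the count divided by length and by 1 constant per library.

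Counts were tested with edgeR 4.0.16 in R 4.3.3 (TMM, robust quasi-likelihood fit, filterByExpr with a minimum of 10 in 3 libraries and a total of 15) on the whole table of 43035 features, 10152 of them unannotated transcripts. Of these, 15513 were tested, two-sided, with Benjamini-Hochberg adjustment. CPM used TMM-scaled library sizes. Exact permutation tests of 3 against 3 libraries cannot give a p below 0.1. The biological coefficient of variation was 8.82%, and replicates of a group differed by more than sampling noise (chi-square per degree of freedom 2.58 to 6.39). Alternatives were DESeq2 1.42.0, other scalings and filters, a replicate block, limma 3.58.1 on log2(FPKM + 1) and log2(FPKM + 0.1) for FPKM above 0.5, and each library left out. Transcripts covering a gene were found with GenomicRanges 1.54.1. Every member is named, with called members per library, and of the wider lists the called genes. The members and lists were chosen with earlier results of these data known. The scripts were tested on simulated data.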

Additional observations from a re-analysis of the deposited data

How the results depend on the processing

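Of the 7 called genes, Plin2, Lpl, Hadh, Eci1 and Eci2 kept their direction and their call in all 17 other settings, so that 5 genes were lower in each, also at an adjusted p below 0.01. Fabp3 and Ppargc1a account for all 9 of 119 values in which a called gene lost its call. The number of higher genes was 1 with library size only, with limma on log2(FPKM + 1) or log2(FPKM + 0.1) and at an adjusted p below 0.01, and 0 to 2 with 1 library left out, the 0 being without si-DYRK1A replicate 3. Among the 19 genes not called, 318 of 320 values kept side and direction, and none gained a call. Slc25a20 ran from -0.06 to 0.02 and Etfa from -0.06 to 0.01 on the log2 scale with 1 library left out, both turning positive without si-NC replicate 3. Over all features, 1199 and 1180 were called by limma with the pseudocounts 1 and 0.1, and 1307 at an adjusted p below 0.01, beside 2360. In the wider list the higher genes numbered 5 with no filter on low counts and 3 to 6 with 1 library left out, the 6 being without si-NC replicate 3. The lower genes numbered 4 with limma at either pseudocount, 5 at an adjusted p below 0.01, and 5 to 8 with 1 library left out, the 5 being without si-DYRK1A replicate 3. The cause of these differences was not tested.

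The replicate numbers did not pair the libraries (correlations of same-numbered deviations of 0.0578, -0.0261 and -0.00409), and with the replicate block 2269 features were called, with 2 higher and 5 lower fatty acid genes and 3 higher and 8 lower genes of the wider list. Low counts limit the precision for the receptors and most covering transcripts and left 10 genes without a test.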
